A study of Danio rerio with 16 samples.

Results

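The expression of 3 genes of RNA processing, *cnot1* (ENSDARG00000004174), *dicer1* (ENSDARG00000001129) and *ddx39ab* (ENSDARG00000015111), was followed in the gonads of adult zebrafish exposed to the aromatase inhibitor exemestane (EM). They are 3 of the 32520 genes counted, and all 3 passed the filter on low counts in each comparison. They were picked by name with the difference between EM-females and control females already known, so that their values in this contrast are a description without a test.

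Aromatase makes estradiol from androgens, and the exposure was meant to start the change of the ovary towards a testis. The fish were of the AB strain and 4 months old, and were kept for 32 days in water with 50, 100 or 200 μg/L EM or as controls. RNA of 16 gonads was sequenced, 1 fish per library. The exposed fish were 2 females and 2 males at each concentration, pooled here as 6 EM-females and 6 EM-males, and they were compared with 2 control females and 2 control males. EM was dissolved in dimethyl sulfoxide, and the controls were taken as the solvent controls that the methods describe. Each treatment had 1 tank holding 3 males and 3 females, so that tank and treatment cannot be told apart, and p-values measure the spread between fish.

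CNOT1 is the scaffold of the CCR4-NOT complex, which shortens the poly(A) tails of mRNAs and so starts their decay. DICER1 cuts precursor microRNAs into their mature form, and mature microRNAs in Argonaute proteins bring CCR4-NOT to their target mRNAs. The DDX39 proteins are DEAD-box RNA helicases close to UAP56, which act in splicing and pass mRNAs to the export machinery. In the ovary such steps matter because growing oocytes store maternal mRNAs and later clear them.

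The depth of the 16 libraries ran from 4043394 to 13821205 reads assigned to genes. Summed normalized counts of 13 oocyte genes were between 64687 and 80787 in EM-females and 70287 and 80359 in control females, against 4290 to 15924 in EM-males and 10484 and 13149 in control males. Spermatocyte and spermatid genes went the opposite way between the sexes, with 1017 to 1284 in EM-females and 898 and 912 in control females, against 20655 to 40110 in EM-males and 19128 and 35860 in control males. Of the 13 oocyte genes, 11 were higher and 2 lower in EM-females than in EM-males (edgeR adjusted p under 0.05). In controls 10 were higher and 2 lower. Of all genes, 34.6% were higher and 41.4% lower in exposed fish, and 16.5% and 29.5% in controls. The 2 lower genes were *ddx4* and *dazl*, so that this list does not mark oocytes alone and its sums in testes hold both. All 13 spermatocyte and spermatid genes were lower in both comparisons. By these lists taken whole, the libraries carried the markers of their labelled sex. Control female 1 stood apart by a liver sum of 4036, where control female 2 had 79.9 and the EM-females 37.6 to 456. Among males, the library of control male 1 was the shallowest and the top 20 genes took 21.6% of its reads. Male 2 at 200 μg/L EM had the lowest oocyte sum (4290) and the highest liver (55827) and leukocyte (14803) sums. In such bulk samples, fewer cells of a type and less RNA per cell cannot be told apart.

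*cnot1* was higher in the ovaries of EM-females than in those of control females. Its normalized counts, which are reads divided by the size factor of the library, were 1325 and 1216 at 50 μg/L, 1275 and 1614 at 100 μg/L, and 1411 and 1529 at 200 μg/L, against 508 and 475 in control females. The lowest of the 6 EM-females thus had more than 2 times the level of the higher control female. The means were 1395 ± 153 (SD, n = 6) in EM-females and 492 ± 23.7 (SD, n = 2) in control females. The log2 fold change was 1.48 (SE 0.13), or 2.78-fold. By concentration, the log2 fold change to the 2 controls was 1.33 (SE 0.12) at 50, 1.52 (SE 0.16) at 100 and 1.56 (SE 0.12) at 200 μg/L.

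*dicer1* was also higher in EM-females, with more spread. It had 417 and 500 normalized counts at 50 μg/L, 679 and 486 at 100 μg/L, and 418 and 363 at 200 μg/L, against 161 and 291 in control females. All 6 EM-females lay above both controls, the nearest pair being the female with 363 at 200 μg/L and the control female with 291. The means were 477 ± 111 (SD, n = 6) in EM-females and 226 ± 91.6 (SD, n = 2) in control females, with a log2 fold change of 1.05 (SE 0.30) or 2.07-fold. The log2 fold change was 0.98 (SE 0.35) at 50, 1.33 (SE 0.37) at 100 and 0.77 (SE 0.35) at 200 μg/L. It was 0.68 without control female 1, the one with liver transcripts, and 1.56 without control female 2.

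*ddx39ab* was lower in EM-females. It had 3129 and 2891 normalized counts at 50 μg/L, 3088 and 2715 at 100 μg/L, and 2820 and 3173 at 200 μg/L, against 4700 and 5840 in control females. The 6 EM-females were close to each other and all lay below both controls. The means were 2969 ± 187 (SD, n = 6) in EM-females and 5270 ± 807 (SD, n = 2) in control females, and the log2 fold change was -0.86 (SE 0.10), or 1.81-fold lower. It was -0.85 at 50, -0.90 at 100 and -0.84 at 200 μg/L. Without control female 1 it was -1.01 and without control female 2 it was -0.67.

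In EM-females against control females, 15.2% of the 15907 genes tested had groups that did not overlap (9.13% higher and 6.06% lower), and 0.0126% (2 genes, *cnot1* being 1 of them) had an adjusted p under 0.05 in edgeR. DESeq2 called 392 genes, with *cnot1*, *dicer1* and *ddx39ab* among them. As the 3 genes were picked from this contrast, nothing is read from their own places in it. Since *cnot1* and *ddx39ab* differed in opposite directions, their ratio within a library, which does not depend on the size factor, was 1.68 to 2.42 reads of *ddx39ab* per read of *cnot1* in EM-females, against 9.24 and 12.3 in control females. As both genes were picked from this contrast, the ratio in females is a description and no test. In EM-males the ratio was between 1.08 and 9.32, against 21.2 and 1.46 in control males, where the 21.2 rests on 34 reads of *cnot1*. Sums of other marker lists also stood apart between the female groups. Follicle somatic genes summed to 80.9 to 163 in EM-females, against 18.7 and 28.7 in control females, spermatocyte and spermatid genes to 1017 to 1284, against 898 and 912, and muscle genes to 64.1 to 141, against 169 and 200. The follicle list summed far higher in testes, to 4254 to 11750 in EM-males and 7984 and 11404 in control males. It therefore does not mark ovarian follicle cells alone. For liver genes, control female 2 (79.9) lay within the range of the EM-females, so that the difference in the sum lay with control female 1. Taken gene by gene, all 10 liver genes tested were negative. For 2 of them all EM-females lay below both controls, as for 6.06% of all genes. The list holds the vitellogenin genes *vtg2*, *vtg4* and *vtg6*, which the paper reports as lower in EM-females. By edgeR 0 genes of these 4 lists were called. An unadjusted p under 0.05 was reached by 2 of 5 follicle genes tested (2 higher) and 3 of 8 spermatocyte and spermatid genes (1 higher, 2 lower). It was also reached by 1 of 4 muscle genes (lower), 6 of 10 liver genes (6 lower) and 11.7% of all genes. By sign, 5 of the 5 follicle genes were positive (median log2 fold change 2.40) and 4 of the 4 muscle genes negative. The follicle sums in control females, 18.7 and 28.7 over 7 genes, were low. Of the 8 spermatocyte and spermatid genes 4 were positive and 4 negative, so that the higher sum is not a shared direction of the list. Among the positive ones was *piwil1* (0.54, edgeR adjusted p = 0.227), which is also a gene of the piRNA list. The part of these 4 lists in the values of *cnot1*, *dicer1* and *ddx39ab* was not tested. Without control female 1 the log2 fold changes were 1.52 for *cnot1*, 0.68 for *dicer1* and -1.01 for *ddx39ab*. Their direction could not turn, as all EM-females lay on the same side of both controls.

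**Figure D1:**
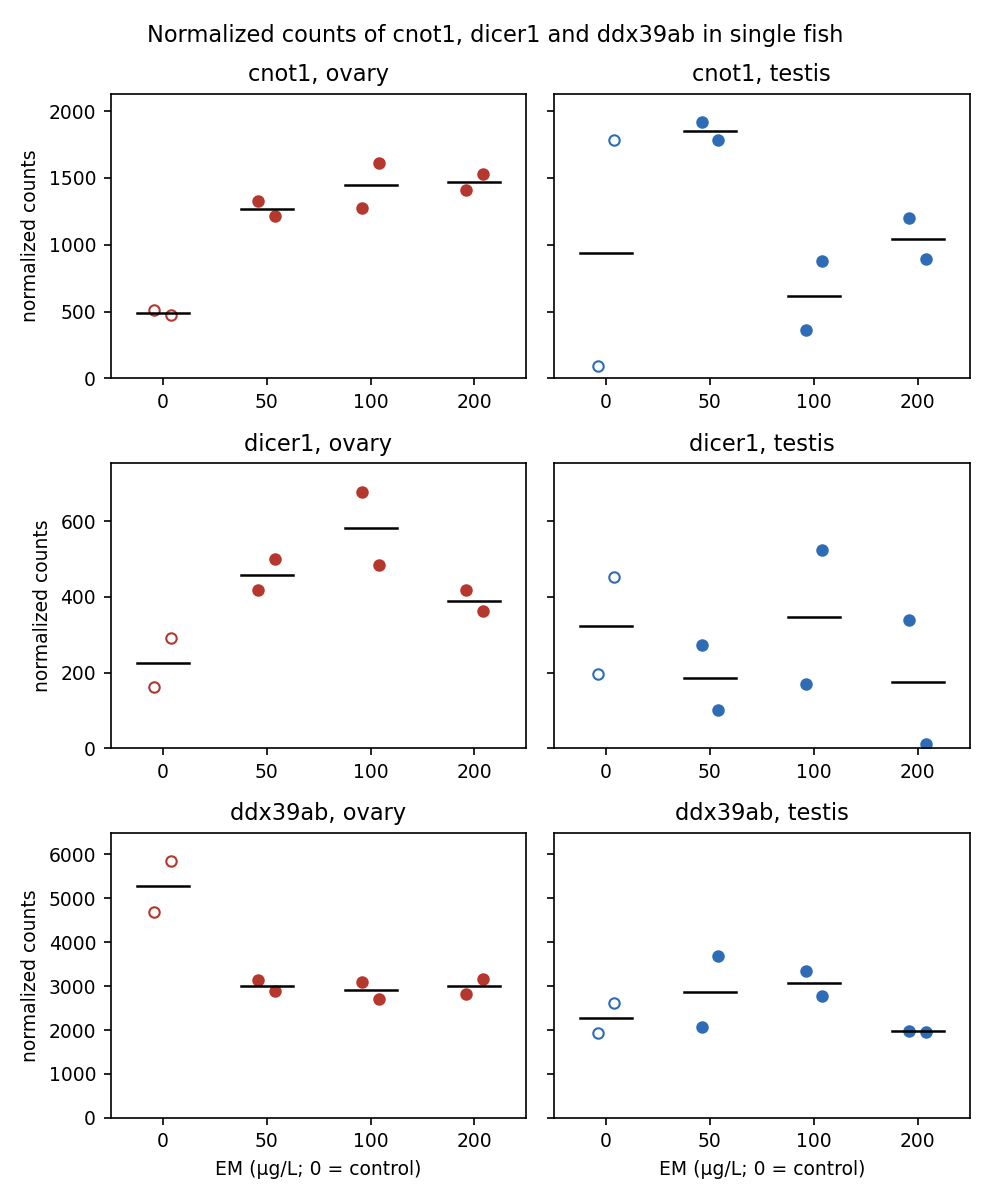
Normalized counts (vertical axis, from 0) of *cnot1*, *dicer1* and *ddx39ab* in ovaries (left) and testes (right) against the EM concentration in μg/L, where each point is 1 fish, open points are controls and the bars are means of 2 fish. In ovaries the *cnot1* and *dicer1* points of all EM-females lie above both controls and those of *ddx39ab* below both, while in testes the points of exposed and control fish overlap.

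Within the exposed females, no slope of the levels on the concentration passed the test for the 3 genes. Per doubling of EM, the log2 slope was 0.11 (SE 0.07) for *cnot1*, -0.11 (SE 0.16) for *dicer1* and 0.01 (SE 0.06) for *ddx39ab*, each with an edgeR adjusted p of 0.9998. Of 14854 genes tested, 0 had a slope with an adjusted p under 0.05, 4.22% had an unadjusted p under 0.05, and DESeq2 called 109. For *cnot1* the steps between 50 and 200 μg/L were small beside the difference of each concentration from the controls. Its means were 1271, 1445 and 1470 at 50, 100 and 200 μg/L, against 492 in control females. This did not hold for *dicer1*, with means of 458, 582 and 390, against 226 in control females.

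The 3 genes differed in how much they varied among the 6 EM-females. The SD of log2 normalized counts was 0.09 for *ddx39ab*, 0.16 for *cnot1* and 0.31 for *dicer1*, where the median of 10034 genes with a mean of at least 50 was 0.26. In EM-males the SDs were larger, with 0.40 for *ddx39ab*, 0.88 for *cnot1* and 1.97 for *dicer1* and a median of 0.55 over 12926 genes. *ddx39ab* thus had less spread than the median gene in both sexes, and *dicer1* had more. The *dicer1* SD in EM-males includes male 2 at 200 μg/L, with 10.7 normalized counts from 5 reads, where the other EM-males had 100 to 524.

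In testes the same genes showed no difference between exposed and control fish that exceeded the spread. Testis somatic genes summed to 5806 to 9128 in EM-males, against 16019 and 20476 in control males, without overlap. Of the 9 tested, 7 were negative and 2 positive, and edgeR called 0. An unadjusted p under 0.05 was reached by 2 of them (lower), and by 6.12% of all genes. The part of this list in the values of the 3 genes was not tested. *cnot1* had 1919 and 1783 normalized counts at 50 μg/L, 360 and 876 at 100 μg/L, and 1202 and 890 at 200 μg/L, against 90.9 and 1784 in control males. The control males differed from each other by more than any pair of EM-males, and the low value rested on 34 reads (95% Poisson interval 23.5 to 47.5, counting error only) in control male 1. The log2 fold change was 0.27 (SE 0.90, edgeR adjusted p = 0.983, two-sided exact permutation p = 0.786). It was -0.66 without control male 1 and 3.70 without control male 2, so that 1 control library set its direction.

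*dicer1* had 272 and 100 normalized counts at 50 μg/L, 170 and 524 at 100 μg/L, and 338 and 10.7 at 200 μg/L, against 195 and 453 in control males. The 2 fish of each concentration, and the 2 controls, differed from each other more than 2-fold. The lowest value came from 5 reads (95% Poisson interval 1.62 to 11.7) in male 2 at 200 μg/L, the library with the most liver and leukocyte transcripts. The log2 fold change was -0.48 (SE 0.96, edgeR adjusted p = 0.970, exact permutation p = 0.607), between -0.995 and 0.305 with 1 fish left out. Of the 8 fish, only leaving out control male 2 turned it positive.

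*ddx39ab* had 2067 and 3679 normalized counts at 50 μg/L, 3353 and 2771 at 100 μg/L, and 1979 and 1960 at 200 μg/L, against 1925 and 2612 in control males. The exposed fish covered the range of both controls except its lowest end. The log2 fold change was 0.19 (SE 0.35, edgeR adjusted p = 0.968, exact permutation p = 0.536). Among 19417 genes tested in males, 0.00515% (1 gene) were called by edgeR, the groups did not overlap for 8.31%, and with 6 fish against 2 the smallest exact p is 0.0357. The slopes per doubling of EM in males were -0.40 (SE 0.30) for *cnot1*, -0.03 (SE 0.76) for *dicer1* and -0.25 (SE 0.21) for *ddx39ab*, with edgeR adjusted p = 0.906, 0.998 and 0.906, where 0 of 17541 genes had an adjusted p under 0.05, 4.38% had an unadjusted p under 0.05, and DESeq2 called 67.

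The EM effect in females minus that in males, taken from 1 model of all 16 libraries, was 1.30 (SE 0.98) for *cnot1*, 1.55 (SE 1.103) for *dicer1* and -1.02 (SE 0.37) for *ddx39ab* on the log2 scale. These differences contain the contrast from which the genes were picked and are given without a test. For *cnot1* it was -2.27 without control male 2.

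The order of the 8 groups shows where exposed ovaries stood beside testes. The mean of *cnot1* was lowest in control females (492) and highest in males at 50 μg/L (1851), with the exposed ovaries at 50, 100 and 200 μg/L (1271, 1445 and 1470) just below those males. Groups next to each other in this order overlapped, except males at 200 and females at 50 μg/L, and females at 200 and males at 50 μg/L. For *dicer1* the 3 groups of EM-females had the highest means of the 8 (390 at 200, 458 at 50 and 582 at 100 μg/L), and control females (226) stood among the 5 other groups, from 174 in males at 200 μg/L to 347 in males at 100 μg/L. Each group of *dicer1* overlapped with the next in order. For *ddx39ab* control females (5270) were highest, and the next group, males at 100 μg/L, had 3062. The other groups lay between 1970 and 3062, each overlapping with its neighbour in order.

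The sex difference was taken within exposed and within control fish. The female libraries there are also those from which the genes were picked, so that the p-values of the 3 genes are a description and not a test. In control females against control males, *ddx39ab* was higher (log2 fold change 1.36, SE 0.42, 2.57-fold, edgeR adjusted p = 0.0441), as were 16.5% of the 18494 genes tested, while 29.5% were lower. The call was lost without control female 1 (1.55, adjusted p = 0.233) or control female 2 (1.28, adjusted p = 0.306), and held without either control male. *cnot1* (-0.84, SE 1.19, adjusted p = 0.591) and *dicer1* (-0.40, SE 0.62, adjusted p = 0.630) did not pass. For *cnot1* the value was -1.73 without control male 1 and 2.66 without control male 2, where the adjusted p was 0.0134.

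In EM-females against EM-males, none of the 3 genes passed, although 76% of 17253 genes did. The log2 fold change of *ddx39ab* was 0.29 (SE 0.17, edgeR adjusted p = 0.134, exact permutation p = 0.303), that of *cnot1* 0.37 (SE 0.30, adjusted p = 0.273, exact p = 0.394) and that of *dicer1* 1.13 (SE 0.55, adjusted p = 0.0769, exact p = 0.026). The exact p-values are unadjusted, and that of *dicer1* was 0.125 when adjusted over the 24 exact permutation tests. The EM-females and EM-males overlapped for each gene, while they did not overlap for 58.5% of all genes tested. These values depend on the scaling between ovary and testis. The median of all genes was -0.19 here and 0.09 when the genes with low counts were kept, and *ddx39ab* then had 0.57 (adjusted p = 0.0119) and *dicer1* 1.38 (adjusted p = 0.0469). Relative to the median of all genes, *ddx39ab* was 0.48 higher in EM-females in the filtered fit and 0.47 higher in the unfiltered one, and *dicer1* 1.32 and 1.29 higher.

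**Figure D2:**
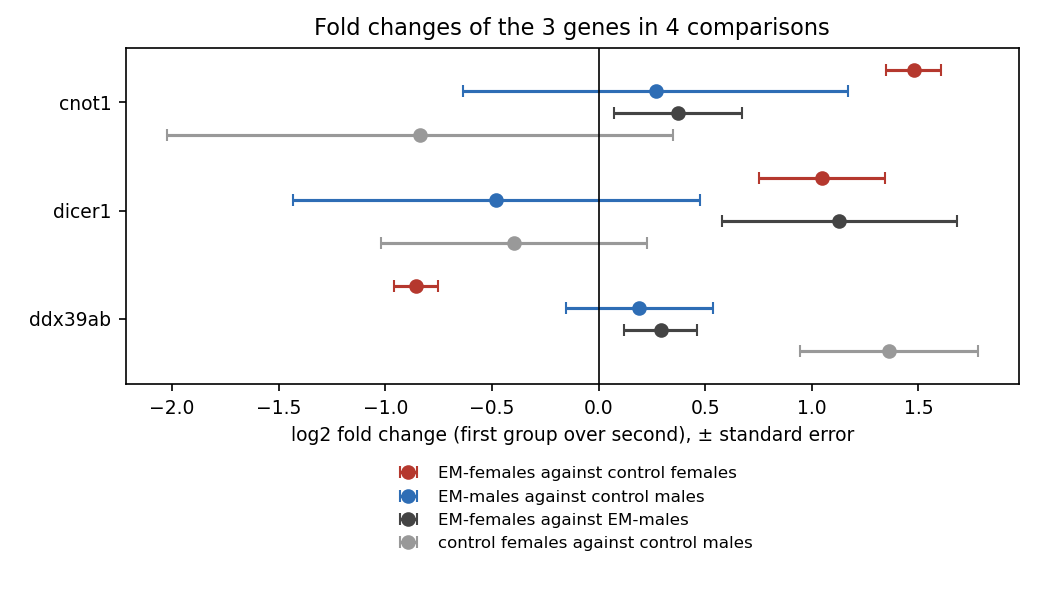
Log2 fold changes of *cnot1*, *dicer1* and *ddx39ab* (horizontal axis, first named group over the second) in 4 comparisons, with bars for the standard error of the edgeR fit. The changes in females (1.48, 1.05 and -0.86) have short bars, those in males (0.27, -0.48 and 0.19) have bars that cross 0, and *ddx39ab* is 1.36 in control females against control males and 0.29 in EM-females against EM-males.

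The *cnot1* difference was set beside those of the other subunits of its complex. Of the 14 genes of the CCR4-NOT list, 1 was called in EM-females against control females by edgeR, namely *cnot1* itself, and the same 1 by DESeq2. By edgeR 0.0126% of all genes were called. By sign, 10 of the 14 were positive and 4 negative, and 5 including *cnot1* (3 higher and 2 lower) had an unadjusted p under 0.05, where 11.7% of all genes did. The median log2 fold change of the list, *cnot1* included, was 0.14, against 0.01 for all genes tested. As *cnot1* was picked from this contrast, its own part in these counts is no result. Of the genes below, *cnot4b* and *cnot6a* are named after their values were seen. *cnot4b*, a ubiquitin ligase of the complex, had 1706 to 2349 normalized counts in EM-females and 1176 and 1659 in control females (0.51, adjusted p = 0.277). *cnot3* (ENSDARG00000007135), which forms a module with CNOT2, had 809 to 977 in EM-females and 693 and 701 in control females (0.34, adjusted p = 0.277), and its paralog *cnot3b* had 0.24 (SE 0.11). Of the deadenylases, *cnot6a* had 57.2 to 115 in EM-females and 148 and 166 in control females (-0.85, adjusted p = 0.301), *cnot8* 773 to 1038 in EM-females and 1097 and 1219 in control females (-0.41, adjusted p = 0.274), and *cnot7* overlapped between the groups (-0.05, SE 0.44). None of the 13 subunits other than *cnot1* passed the adjustment.

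Between the sexes, the called genes of this list did not include *cnot1*. In EM-females against EM-males 5 of 14 were higher and 3 lower, where 34.6% of all genes were higher and 41.4% lower. Those with the smallest adjusted p were *cnot3b* (2.69, adjusted p = 1.51e-08), *cnot4b* (2.01, adjusted p = 4.22e-07) and *cnot4* (1.69, adjusted p = 1.29e-05). In control females against control males 2 of 14 were higher, *cnot3b* (2.36, adjusted p = 0.0104) and *cnot4b* (1.83, adjusted p = 0.0140), and 0 were lower (1 at an unadjusted p under 0.05). Of all genes, 16.5% were called higher and 29.5% lower there. Where *cnot1* had 1216 to 1614 in EM-females and 360 to 1919 in EM-males, *cnot3b* had 813 to 1026 in EM-females and 104 to 207 in EM-males, without overlap.

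Of the proteins that bring CCR4-NOT to mRNAs, 0 of 19 tested genes were called with EM in females by edgeR (3 at an unadjusted p under 0.05, where 11.7% of all genes were) or DESeq2. The median was 0.29, against 0.01 for all genes tested. Sex differences were called for *cpeb1b*, which binds polyadenylation elements of oocyte mRNAs (4.74 in EM-females against EM-males, 5.32 in control females against control males), for *nanos3*, a germ cell regulator (6.46 in EM-females against EM-males), for *btg2*, whose protein binds the deadenylases (3.93 in control females against control males), and for *zfp36l1b*, of a family that binds AU-rich elements (-5.55 in exposed and -5.85 in control fish). The adjusted p of the values given was at most 7.31e-09 in exposed and 0.00612 in control fish.

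For *dicer1*, the other genes of the microRNA pathway gave no call by edgeR in EM-females against control females. Of 18 genes tested 0 were called, 7 were positive and 11 negative, 3 including *dicer1* had an unadjusted p under 0.05 (11.7% of all genes did), and the median was -0.14. *drosha*, the nuclease that releases microRNA precursors in the nucleus, had 1773 to 2167 in EM-females and 2020 and 2118 in control females (-0.14, SE 0.09, adjusted p = 0.566). *dgcr8*, its RNA-binding partner, had 111 to 511 in EM-females and 381 and 419 in control females (-0.53, SE 0.48, adjusted p = 0.726). *ago2*, for an Argonaute that holds mature microRNAs, was at 7.43 to 14.3 in EM-females and 12.8 and 15.3 in control females (-0.65, SE 0.43, adjusted p = 0.595).

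*prkra* and *tarbp2*, named after their values were seen, encode double-stranded RNA-binding partners of Dicer in mammals. Both were lower in all 6 EM-females than in both control females. They were the 2 of 18 tested genes of the list that were lower without overlap, where 6.06% of all genes were. *prkra* had 340 to 509 normalized counts in EM-females and 726 and 752 in control females (-0.75, SE 0.15, adjusted p = 0.173). *tarbp2* had 137 to 331 in EM-females and 347 and 491 in control females (-0.69, SE 0.30, adjusted p = 0.417). Neither passed in edgeR, while DESeq2 called *prkra*.

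Between the sexes *dicer1* did not pass, while 9 of 18 genes of the pathway were higher and 4 lower in EM-females against EM-males, and 5 of 17 higher and 2 lower in control females against control males. Of all genes, 34.6% were higher and 41.4% lower in the exposed fish, and 16.5% higher and 29.5% lower in the controls. *drosha* was higher (2.13, adjusted p = 6.10e-08 in exposed fish, and 1.86, adjusted p = 0.0134 in controls), as was *prkra* (3.69, adjusted p = 1.42e-07 in exposed fish, and 4.34, adjusted p = 0.00658 in controls). *tnrc6c*, of the GW182 family that links Argonaute to CCR4-NOT, was lower (-2.71, adjusted p = 3.77e-08 in exposed fish, and -3.24, adjusted p = 0.0117 in controls), and *lin28a*, which blocks the processing of let-7 precursors, was higher in control females (5.08, adjusted p = 0.00401). The 2 control females of *dicer1* (161 and 291) were not both above its control males (195 and 453), and *drosha* had 2020 and 2118 in control females and 524 and 762 in control males.

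**Figure D3:**
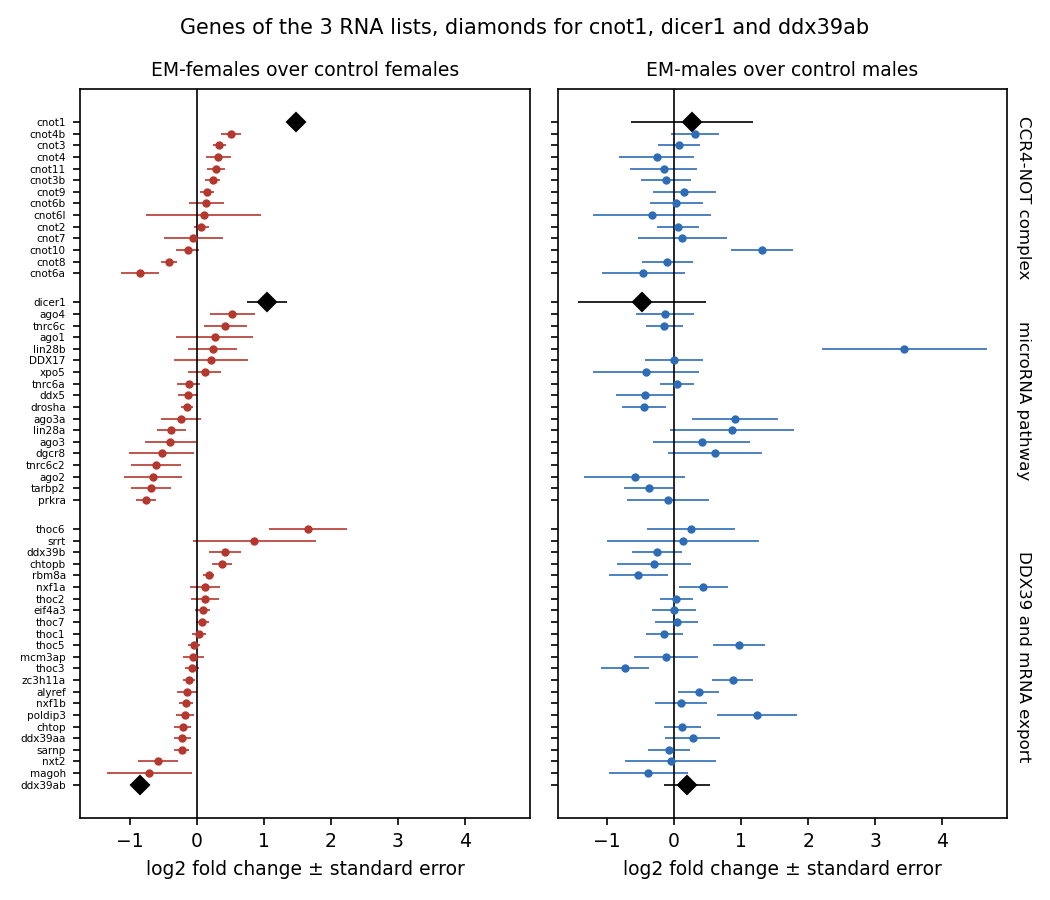
Log2 fold changes with standard errors (horizontal axis) of the tested genes of the CCR4-NOT, microRNA, and DDX39 and mRNA export lists, for EM-females over control females (left) and EM-males over control males (right), where diamonds mark *cnot1*, *dicer1* and *ddx39ab* and genes not tested in males have no point there. In females *cnot1* (1.48) and *dicer1* (1.05) lie at the upper end of their lists and *ddx39ab* (-0.86) at the lower end of its own. Nothing is read from these places, as the 3 genes were picked from this contrast. In males the 3 genes lie near 0 beside their errors.

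The DDX39 genes were compared as shares of their summed reads, which removes the scaling of libraries. Reads that fit both *ddx39aa* and *ddx39ab* equally were not counted by the authors, so that the levels of these close paralogs are uncertain to that extent. *ddx39ab* made up 45.2% to 51.6% of the reads of *ddx39ab*, *ddx39aa* and *ddx39b* in EM-females, against 55.6% (exact 95% binomial interval 54.7 to 56.6) and 64.6% (63.7 to 65.5) in control females. The 6 EM-females were all below both controls in this share. It rests on the reads by which *ddx39ab* was picked, so it is a description and no second test. Counting error was small beside the gap, but it does not cover the spread between fish. In EM-males the share was 32.6% to 59.0%, against 42.8% and 43.2% in control males.

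*ddx39aa* had 2463 to 3337 normalized counts in EM-females and 3088 and 3636 in control females (-0.22, SE 0.13, adjusted p = 0.552), so that the groups overlapped. *ddx39b*, the gene for UAP56, had 111 to 184 in EM-females and 110 and 113 in control females (0.42, SE 0.23, adjusted p = 0.530). It was lower in females than in males, with a log2 fold change of -3.31 in exposed fish (adjusted p = 1.46e-08) and -3.97 in controls (adjusted p = 0.00500). *ddx39aa* was higher in females, by 1.30 in exposed fish (adjusted p = 7.18e-05) and by 1.81 in controls (adjusted p = 0.0171). *ddx39ab* passed between the sexes in controls and not in exposed fish, and this difference was not tested. Both comparisons contain female libraries from which *ddx39ab* was picked, so that its p-values there are a description.

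**Figure D4:**
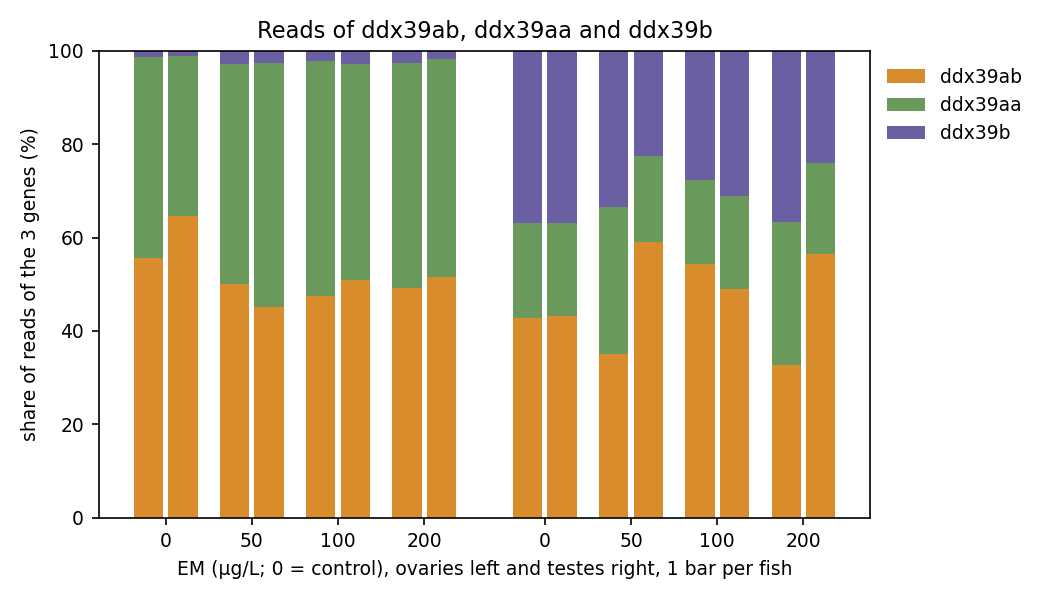
Share (%) of the reads of *ddx39ab*, *ddx39aa* and *ddx39b* in each fish, by EM concentration in μg/L, with ovaries on the left and testes on the right and 1 bar per fish. *ddx39ab* takes 45.2% to 51.6% in exposed ovaries and 55.6% and 64.6% in control ovaries, and *ddx39b* takes under 3% in each ovary and 22.5% to 36.9% in testes.

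For *ddx39ab*, the list was that of mRNA export. Of 23 genes tested in EM-females against control females 0 were called by edgeR, 10 were positive and 13 negative, 3 including *ddx39ab* had an unadjusted p under 0.05 (11.7% of all genes did), and the median was -0.06. None of the genes other than *ddx39ab* was called by DESeq2. *thoc6* (1.66, SE 0.58, adjusted p = 0.328) and *chtopb* (0.38, SE 0.15, adjusted p = 0.380), named after their values were seen, were the others with an unadjusted p under 0.05. Between the sexes 5 of 23 were higher and 6 lower in exposed fish, and 5 higher, *ddx39ab* included, and 2 lower in controls, where 34.6% of all genes were higher and 41.4% lower in exposed fish, and 16.5% higher and 29.5% lower in controls. The calls in controls rest on 2 fish of each sex, and fewer of all genes were called there with 1 fish left out. Of the called export genes, *thoc3* (3.05 and 2.39) and *thoc1* (1.93 and 1.78), of the THO complex that works with UAP56, were higher in females in exposed and control fish (adjusted p at most 0.0128).

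Lists of neighbouring pathways were also without a call by edgeR in EM-females against control females. The counts were 0 of 29 genes of other mRNA decay (5 at an unadjusted p under 0.05), 0 of 14 of the piRNA pathway (3) and 0 of 15 of the spliceosome (3). By edgeR, 11.7% of all genes in this contrast had an unadjusted p under 0.05. DESeq2 called 1, 2 and 0 genes of these lists. The share of all genes called by DESeq2 is not given, so that nothing is read from its list counts. In EM-males against control males 0 genes of the 7 lists were called by edgeR or DESeq2. An unadjusted p under 0.05 was reached there by 1 of 14 CCR4-NOT, 1 of 16 microRNA and 2 of 23 export genes, none of them *cnot1*, *dicer1* or *ddx39ab*, and by 6.12% of all genes. Sex differences were called in exposed fish for the decay genes *patl2* (5.20), *xrn2* (3.42) and *parn* (3.37), the piRNA genes *tdrd12* (-2.64), *pld6* (-3.52) and *piwil1* (-2.80) and the splicing factor gene *sf3b1* (-1.82), all of them also called in controls. *u2af2* (-1.09) and *dhx16* (1.15) were called in exposed fish, with an adjusted p of at most 2.62e-05 for all 9 genes.

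Genes next to the 3 in the genome were not called in EM-females against control females. The neighbours of *cnot1* in the RefSeq order of genes were *kdm7ab* (-0.15, adjusted p = 0.913) and *setd6* (0.98, adjusted p = 0.284), of which *setd6* had medians of 67.5 in EM-females and 33.9 in control females. Next to *dicer1*, *kif11* was at 0.00 (adjusted p = 0.998). The other neighbours of *dicer1* and *ddx39ab* had too few reads to be tested.

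Over the 8 ovaries, the genes with the pattern most like *cnot1* among 9851 genes were *si:cabz01069013.3* (Pearson r = 0.98), *macf1a* (0.98), which links microtubules to actin, and *CABZ01060373.1* (0.97), by log2 normalized counts. Over the 8 testes their r with *cnot1* was 0.06, -0.33 and -0.40. Most like *dicer1* were *elmo1* (0.99), *si:ch211-128m15.3* (0.97) and *myof* (0.97), with 0.11, 0.18 and 0.32 in testes. Most like *ddx39ab* were the kinase gene *mapkapk2a* (0.97), *vsig10* (0.96) and *rab43* (0.96), with -0.66, 0.45 and -0.45 in testes. Among the 3 genes, r in ovaries was -0.96 for *cnot1* with *ddx39ab*, 0.76 for *cnot1* with *dicer1* and -0.72 for *dicer1* with *ddx39ab*, and in testes it was 0.21, 0.06 and 0.15. The ovaries fall into exposed and control fish, from which the genes were picked, and the 8 points share their libraries and scaling, so these values describe the pattern only.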

How the data were processed

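Gonad RNA of 16 zebrafish (2 per sex at 0, 50, 100 and 200 μg/L EM) was sequenced as stranded poly(A)+ libraries. The authors mapped reads with HISAT2 2.0.5 to Ensembl GRCz11, removed duplicates with SAMtools 1.5 and counted unique reads per gene with HTSeq 0.9.1 on the reverse strand, and these counts were deposited for 32520 genes (4043394 to 13821205 per library). Reads tallied to no gene, 50.8% to 66.3% of a library, were left out, and 1 cell holding 2 values was split. The authors also deposited normalized signal for 28353 genes, which is each count divided by its DESeq2 size factor (0.374 to 1.89). It is not corrected for gene length, so levels were not compared between genes.

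The counts entered the two-sided robust quasi-likelihood F-test of edgeR 4.0.16 (R 4.3.3), after filterByExpr and TMM scaling, each comparison on its own libraries, with Benjamini-Hochberg adjustment over all genes tested and a threshold of 0.05. For the 3 genes and their partners an exact permutation test of the normalized counts was added. SE is the log2 fold change over the root of F. Intervals cover counting error only. Alternatives were DESeq2 1.42.0, its size factors in edgeR, no filter, 1 model of all 16 libraries, single concentrations, a replicate block and each fish left out. The tests were tested on simulated data.

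The 3 genes and the gene lists were chosen with earlier results of these data known. Genes named from the 7 lists are those called with EM by edgeR, the 3 with the smallest adjusted p among those called in a comparison, fixed partners, and genes that the text marks as named after their values were seen. Symbols came from the study's tables and a reference table, and *cnot3*, *cnot4*, *tnrc6c* and *u2af2* carry no paralog letter there. Gene neighbours were read from RefSeq GRCz12tu. Promoter, transcript and protein sequences were not used here.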

Additional observations from a re-analysis of the deposited data

Results flagged for a closer look

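Of 24 sets of fish examined for a value far from the others (the 3 genes and their 9 partners in the 6 EM-females and the 6 EM-males), 1 was far. *ago2* in EM-females had 14.3 normalized counts in female 1 at 50 μg/L, far above the other EM-females, which began at 7.43. The gap was 0.816 of the range, where the critical value for 6 fish is 0.625. Chance flags about 1 in 20 such sets, and the level is low.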

How the results depend on the processing

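The counts of called genes depended on the tool and the filter. In EM-females against control females (2 called), DESeq2 called 392 (273 higher, 119 lower), the unfiltered fit 7 (3 higher, 4 lower), the model of all 16 libraries 1, and 50, 100 and 200 μg/L alone 0, 0 and 0. With 1 fish left out the count was 0 to 20, with 20 without control female 1 and 0 without control female 2. *cnot1* was 1.33 at 50 μg/L and 1.43 to 1.52 with 1 fish left out, *dicer1* 0.68 to 1.56 and *ddx39ab* -1.01 to -0.67. In EM-males against control males (1 called), DESeq2 called 106 (66 higher, 40 lower), the model of all libraries 0, single concentrations 0, and 1 fish left out 0 to 7. *cnot1* reversed at 100 μg/L (-0.65), *dicer1* at 100 μg/L (0.065) and *ddx39ab* at 200 μg/L (-0.22). With 1 fish left out *cnot1* was -0.66 to 3.70, *dicer1* -0.995 to 0.305 and *ddx39ab* -0.039 to 0.471, with the extremes without control males 1 and 2. The cause was not tested.

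In EM-females against EM-males, the unfiltered fit gave 1.38 for *dicer1* (adjusted p = 0.0469) and 0.57 for *ddx39ab* (0.0119), and the model of all libraries 0.55 for *ddx39ab* (0.0107). With 1 fish left out *dicer1* was 0.90 to 1.53 and *ddx39ab* 0.22 to 0.41, and adjusted p over all alternatives was 0.0224 to 0.136 for *dicer1*, 0.0107 to 0.419 for *ddx39ab* and 0.0525 to 0.489 for *cnot1*. In control females against control males (8498 called), 4895 to 7536 were called with 1 fish left out, *cnot1* was -1.73 to 2.66, *dicer1* -0.87 to 0.44 and *ddx39ab* 1.15 to 1.68. For the slope in EM-females DESeq2 called 109 (69 higher, 40 lower), and 200 against 50 μg/L gave 6 (1 higher, 5 lower). The slope of *ddx39ab* was -0.0029 in the unfiltered fit. With 1 fish left out slopes were -0.233 to 0.0060 for *dicer1*, -0.043 to 0.038 for *ddx39ab* and 0.08 to 0.15 for *cnot1*. For the slope in EM-males DESeq2 called 67 (50 higher, 17 lower) and the model of all libraries 1, and slopes were -0.81 to 0.50 for *dicer1*, -0.60 to -0.24 for *cnot1* and -0.45 to -0.14 for *ddx39ab*. The EM effect in females minus males was -2.27 to 2.23 for *cnot1*, 0.67 to 2.09 for *dicer1* and -1.38 to -0.73 for *ddx39ab*.

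Replicate numbers were not taken to pair the fish: deviations of same-numbered fish correlated at -0.02 to 0.01 between female groups and -0.30 to 0.31 between male groups, with 0.242, 0.31 and 0.151 among the EM-male groups and negative values between these and the control males, and between groups of different sex 0 of 16 values exceeded 0.1. With a replicate block, *cnot1* in control females against control males was 0.35, *ddx39ab* in EM-females against EM-males was 0.41 (adjusted p = 0.0476), and 0 genes were called in EM-males against control males.

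The list counts were also taken without the libraries that stood apart, which was chosen after seeing the data. Without male 2 at 200 μg/L, EM-females against EM-males gave 5 higher and 4 lower CCR4-NOT genes, 10 and 5 microRNA genes and 5 and 7 export genes. These lists hold 14, 19 and 23 genes, of which 14, 18 and 23 were tested with all fish. In that fit 13741 genes were called in all, against 13111 (76% of 17253) with all fish. The number of genes tested without male 2 is not given, so that nothing is read from these list counts. *dicer1* and *cnot1* rested on 5 and 34 reads in single testes.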
